A study of Homo sapiens with 8 samples.

Results

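Genes of fibroblast growth factor (FGF) signalling and of the feedback on MAP kinases were compared between endothelial cells (iEC) and retinal endothelial cells (iREC). Both were made from WTC-TJP1, a widely used line of human induced pluripotent stem cells. Messenger RNA was sequenced in 4 iEC and 4 iREC samples at passage 1, and each group carries the letters C, D, E and F. The iREC were a matched differentiation of the same line, so every sample shares 1 genetic background. Nothing in the labels says that the letters are separate cultures, so the p-values measure only the spread between these samples.

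The members were all protein-coding genes of the deposited table whose symbols name an FGF, an FGF receptor (FGFR1 to FGFR4 and FGFRL1), an FGF binding protein, a Sprouty (SPRY), a Spred (SPRED), a dual-specificity phosphatase (DUSP), or the ETS factors ETV1, ETV4 and ETV5. This gave 56 of 30386 genes, namely 19 ligands and binding proteins, 5 receptors and 32 feedback genes. Intracellular FGF homologous factors, which are not secreted, are counted with the ligands. Of the 56 members, 40 passed the filter on low counts and were tested: 7 ligands and binding proteins, 4 receptors and 29 feedback genes. Total counts ran from 13739364 to 16971865 reads per sample.

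Secreted FGFs bind a receptor tyrosine kinase together with heparan sulfate on the cell surface. The receptor then recruits adaptors that switch on RAS and the kinases RAF, MEK and ERK. ERK raises the transcription of its own brakes: Sprouty and Spred proteins act on RAS and RAF, and MAP kinase phosphatases of the DUSP family remove phosphate from ERK, JNK and p38. The PEA3 factors ETV1, ETV4 and ETV5 are transcription factors that are widely used as a readout of FGF and ERK activity. In blood vessels, FGF signalling is known for supporting endothelial growth, migration and junction integrity. The mRNA of a feedback gene is not a measure of kinase activity, which was not measured here.

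Genes of all 3 roles changed in both directions, and among the called feedback genes falls in iREC outnumbered rises, 11 to 4. By edgeR's quasi-likelihood test with Benjamini-Hochberg adjustment over all 15330 tested genes, called at an adjusted p under 0.05, 21 of the 40 tested members were called (52.5%), against 25.0% of all tested genes. The calls comprised 7 members higher in iREC, against a background of 13.2% of genes, and 14 lower, against a background of 11.7%. Of the 29 tested feedback genes, 11 were called lower, 4 higher and 14 not at all. The median log2 fold change was -0.39 over the 29 tested feedback genes and 0.02 over all tested genes. For 21 of the 40 members the iEC and iREC ranges did not overlap, 8 of them higher and 13 lower in iREC, where 29.1% of all tested genes showed no overlap. The rest of the text gives levels as CPM, read counts brought to a common library size after scaling by the trimmed mean of M-values (TMM). Log2 fold changes are iREC against iEC with a standard error (SE).

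**Figure D1:**
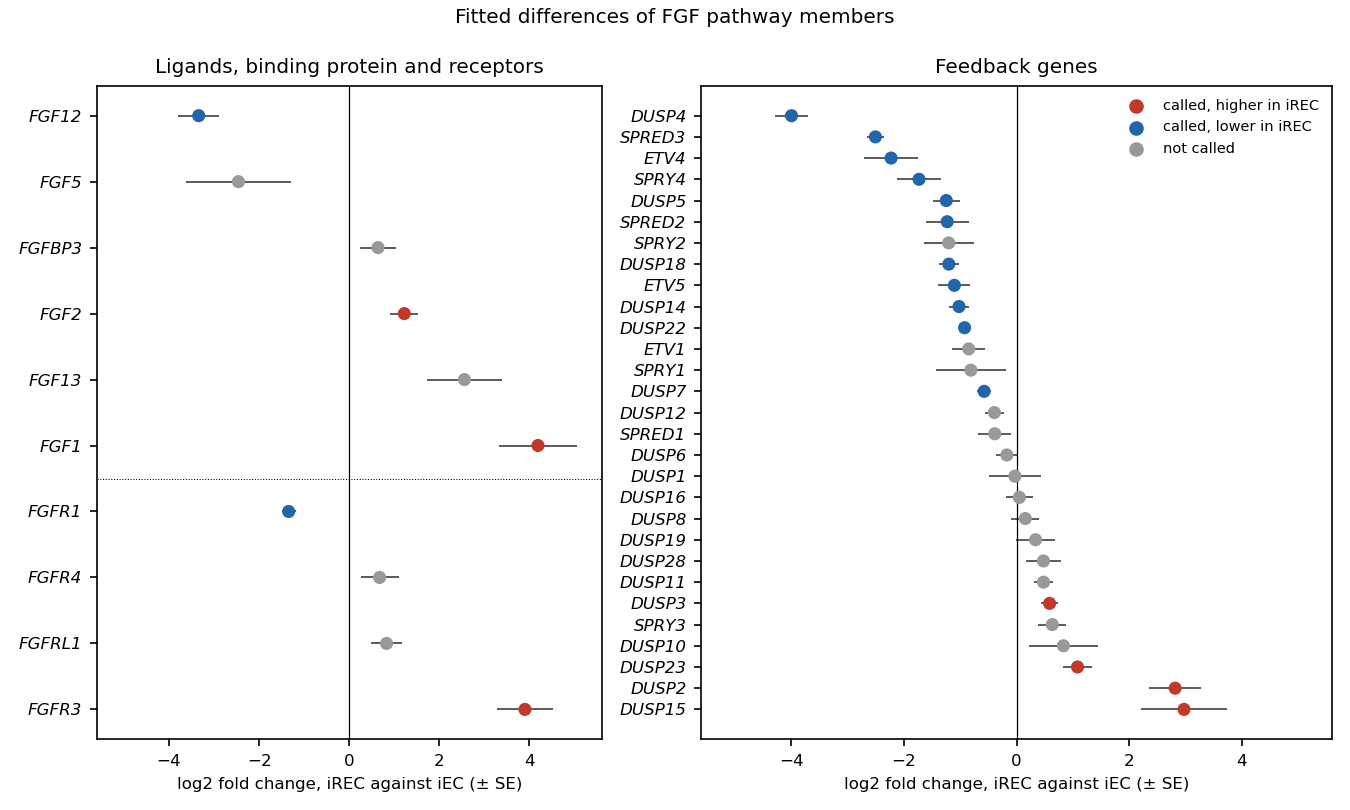
Log2 fold change of each tested member (x axis, iREC against iEC, point ± SE) with genes on the y axis, ligands and the binding protein above the dotted line, receptors under it, and feedback genes at right; colours give the call at an adjusted p under 0.05. FGF16, listed at 0 in every iREC sample, is left out. DUSP4 lies farthest to the left at -3.995, and DUSP15 farthest to the right among feedback genes at 2.97.

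The endothelial label was checked against 10 endothelial markers, whose levels summed to 7325 to 9420 CPM in iEC, against 4306 to 9588 CPM in iREC. Of these, 6 were called, against 25.0% of all tested genes. PECAM1, CDH5, EGFL7 and ESAM were lower in iREC, and TEK and CLDN5 higher. The list holds no gene particular to the retina. Sample iREC F stood apart. Its summed level was 4460 CPM for 11 mural and mesenchymal markers, against 614 to 1242 CPM in the other iREC samples and 234 to 488 CPM in iEC, and 4924 CPM for 7 epithelial markers, against 302 to 1118 and 391 to 1174 CPM. For 6 pluripotency markers it was 516 CPM, of which LIN28A gave 482, with NANOG and TDGF1 at 0. Among the other iREC samples, D was the highest in each of these sums, at 1242, 1118 and 183 CPM. The endothelial sum of iREC F, 4306 CPM, was the lowest of the 8. Among iREC samples, F was the highest for 16 of 29 tested feedback genes and for 4 of 4 tested receptors, against 33.3% of all tested genes. The part of these other markers in the results was not tested, and in bulk samples fewer cells of a type and less RNA per cell cannot be told apart. Fits without iREC F are given for some members only, and they still hold iREC D.

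The ligands FGF2 and FGF1 were higher in iREC, and the ligand FGF16 and the intracellular factor FGF12 were lower. FGF2 (ENSG00000138685, chr4:122826708-122898236 on GRCh38, plus strand) encodes basic FGF, a heparin-binding ligand that leaves cells without a signal peptide and is a classical endothelial growth factor. It measured 13.7, 25.6, 16.6 and 17.2 CPM in iEC C, D, E and F, and 34.3, 38.5, 27.8 and 70.0 CPM in the iREC samples of the same letters. All iREC samples lay above all iEC samples, by a narrow margin between iEC D and iREC E, and iREC F was the highest. The difference was 2.33-fold (log2 fold change 1.22 ± 0.31 SE, adjusted p = 0.0179, edgeR). The call was lost without iEC C or iEC E, at an adjusted p of 0.0510 and 0.0532 (edgeR). Without iREC F the adjusted p was 0.0215, with a log2 fold change of 0.87. An antisense gene, NUDT6, overlaps 804 exonic bases of FGF2 and measured 2.80 CPM in iEC and 4.06 CPM in iREC; whether counting used the strand is not given in the sources used here.

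FGF1 (ENSG00000113578, chr5:142592178-142698070, minus strand), acidic FGF, binds all FGF receptors and was near the floor in iEC. Its levels were 0.390, 0.0632, 0.710 and 0.716 CPM in iEC C, D, E and F. In iREC they were 2.36, 10.5, 2.38 and 19.5 CPM. The groups did not overlap, but within iREC samples D and F were several times above C and E. FGF1 was 18.2-fold higher in iREC (log2 fold change 4.19 ± 0.87 SE, adjusted p = 0.00772, edgeR), and the log2 fold change was 3.41 without iREC F (adjusted p = 0.0113).

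FGF12 and FGF13 encode intracellular FGF homologous factors, which bind voltage-gated sodium channels and are not secreted. FGF12 (ENSG00000114279, chr3:192139395-192767764, minus strand) measured 28.3, 19.3, 16.5 and 13.7 CPM in iEC C, D, E and F and 3.66, 1.43, 1.77 and 0.786 CPM in iREC. Every iEC sample was above every iREC sample, with iEC C the highest and iREC F the lowest. It was 10.1-fold lower in iREC (log2 fold change -3.34 ± 0.45 SE, adjusted p = 8.25e-04, edgeR). FGF13 gave 1.45 ± 1.39 CPM in iEC and 8.48 ± 6.68 CPM in iREC (SD, n = 4) and was not called in edgeR's fit (log2 fold change 2.56 ± 0.84 SE, adjusted p = 0.0523). The FGF13 ranges overlapped, at 3.19 CPM in iEC C and 2.36 CPM in iREC F. Its adjusted p was 0.0401 without iEC C and 0.0257 without iREC F, and its log2 fold change was 1.89 without iREC C.

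FGF16 (ENSG00000196468, chrX:77447405-77457278, plus strand), a secreted paracrine ligand, was read in iEC alone. Its raw counts were 24, 28, 192 and 61 in iEC C, D, E and F and 0 in all 4 iREC samples, so iEC E held most of the reads. Set against 3 counts in a library, taken here as the floor of detection, it was at least 22.3-fold lower in iREC (adjusted p = 0.0052, edgeR). FGF10, a mesenchymal ligand of lung and limb development, showed the opposite layout with 0 counts in all 4 iEC samples and 10, 52, 54 and 57 counts in iREC C, D, E and F. It was at least 13.3-fold higher on the same floor, and fell under the filter; in the fit without a filter it was called higher (adjusted p = 3.23e-04, edgeR). FGF5 measured 11.96 ± 10.996 CPM in iEC and 2.17 ± 2.66 in iREC, and edgeR's fit did not call it (log2 fold change -2.46, adjusted p = 0.153); without iREC F the values were -3.73 and 0.0521. FGFBP3, which carries FGF2 away from heparan sulfate, measured 3.75 ± 0.853 and 5.85 ± 3.67 CPM (adjusted p = 0.286, edgeR). The other 11 ligands under the filter were FGF4, FGF7, FGF8, FGF9, FGF11, FGF14, FGF17, FGF18, FGF20, FGF22 and FGF23. Of these, FGF9 reached 37 and FGF18 30 counts in iREC F, FGF11 22 counts in iREC E, and the rest at most 15 counts in any sample. Without a filter, FGF20 was called higher as well (adjusted p = 0.0442, edgeR), on 0 counts in iEC and at most 6 in iREC.

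Per length, as CPM per kilobase of the deposited gene length, the order of the FGF and FGF binding protein genes differed between the groups. In iEC the highest levels were 2.89 CPM per kilobase for FGF16, 2.70 for FGF2, 2.65 for FGF12 and 1.99 for FGF5, close to one another beside their spread. In iREC, FGF2 led with 6.29 CPM per kilobase, with the largest value in each iREC sample. FGFBP3 at 2.30, FGF1 at 1.65 and FGF10 at 0.946 did not differ beyond their spread: FGFBP3 was above FGF1 in iREC C and E and under it in D and F.

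**Figure D2:**
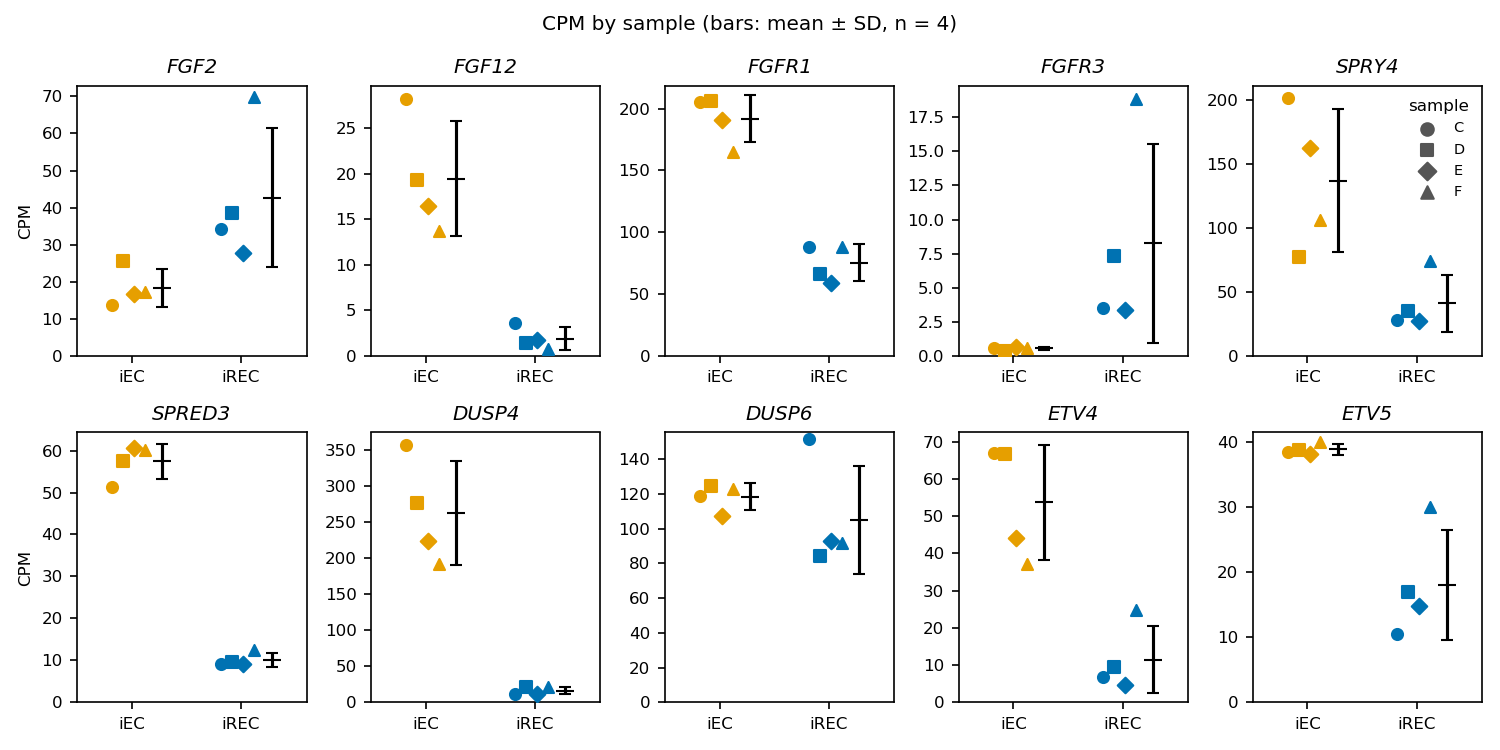
CPM (y axis, linear, from 0) of 10 members in each sample of iEC and iREC (x axis), with the letter of the sample as the symbol and mean ± SD (n = 4) as the bar. DUSP4, SPRED3, FGFR1 and FGF12 are separated with wide gaps, DUSP6 overlaps, and iREC F is the iREC sample nearest to iEC for SPRY4, ETV4 and ETV5.

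The receptors changed in opposite directions: FGFR1 was lower and FGFR3 higher in iREC. FGFR1 (ENSG00000077782, chr8:38400215-38468834, minus strand) is the main FGF receptor of endothelial cells. It measured 205, 206, 191 and 165 CPM in iEC C, D, E and F, and 87.7, 66.6, 59.4 and 88.4 CPM in iREC. The lowest iEC sample was well above the highest iREC sample. FGFR1 was 2.54-fold lower in iREC (log2 fold change -1.34 ± 0.16 SE, adjusted p = 4.02e-04, edgeR), and -1.43 without iREC F.

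FGFR3 (ENSG00000068078, chr4:1793293-1808872, plus strand), best known for restraining bone growth, measured 0.585, 0.379, 0.651 and 0.573 CPM in iEC C, D, E and F and 3.53, 7.35, 3.36 and 18.9 CPM in iREC. All iREC samples were higher, and iREC F was the highest by far. FGFR3 was 14.9-fold higher (log2 fold change 3.90 ± 0.63 SE, adjusted p = 0.00209, edgeR). Without iREC F the log2 fold change was 3.09 (adjusted p = 9.54e-04).

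FGFR4 measured 2.34, 3.29, 1.48 and 2.65 CPM in iEC C, D, E and F, and 1.44, 4.92, 4.03 and 5.17 CPM in iREC. The FGFR4 ranges overlapped, with iREC C the lowest of all 8 samples, and it was not called (log2 fold change 0.67 ± 0.42 SE, adjusted p = 0.279, edgeR). FGFRL1 binds FGFs but lacks the kinase domain. It gave 9.23, 5.18, 10.4 and 7.80 CPM in iEC and 9.09, 15.3, 10.2 and 23.3 CPM in iREC, overlapping as well (log2 fold change 0.83 ± 0.34 SE, adjusted p = 0.105, edgeR). FGFR2, the receptor of FGF7 and FGF10 in epithelia, fell under the filter, with at most 8 counts in an iEC sample and 16 in an iREC sample.

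Set per length, FGFR1 was the leading receptor in every sample, and its lead was smaller in iREC. The summed level of FGFR1 to FGFR4 was 14.5 ± 1.39 CPM per kilobase in iEC and 8.04 ± 2.40 in iREC (SD, n = 4). FGFR1 made up 96.0, 94.7, 96.7 and 94.4% of that sum in iEC C, D, E and F. In iREC it made up 85.3, 65.4, 72.8 and 55.6%. The FGFR3 share was 0.789% ± 0.207 in iEC and 19.02% ± 10.97 in iREC, where it ran from 9.80% in sample C to 33.9% in sample F. Neither share overlapped between the groups. Both follow from the fitted genes above and were not tested again. They depend on the deposited gene lengths, 13842 bases for FGFR1 and 4848 bases for FGFR3, which need not be those of the mRNA present.

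**Figure D3:**
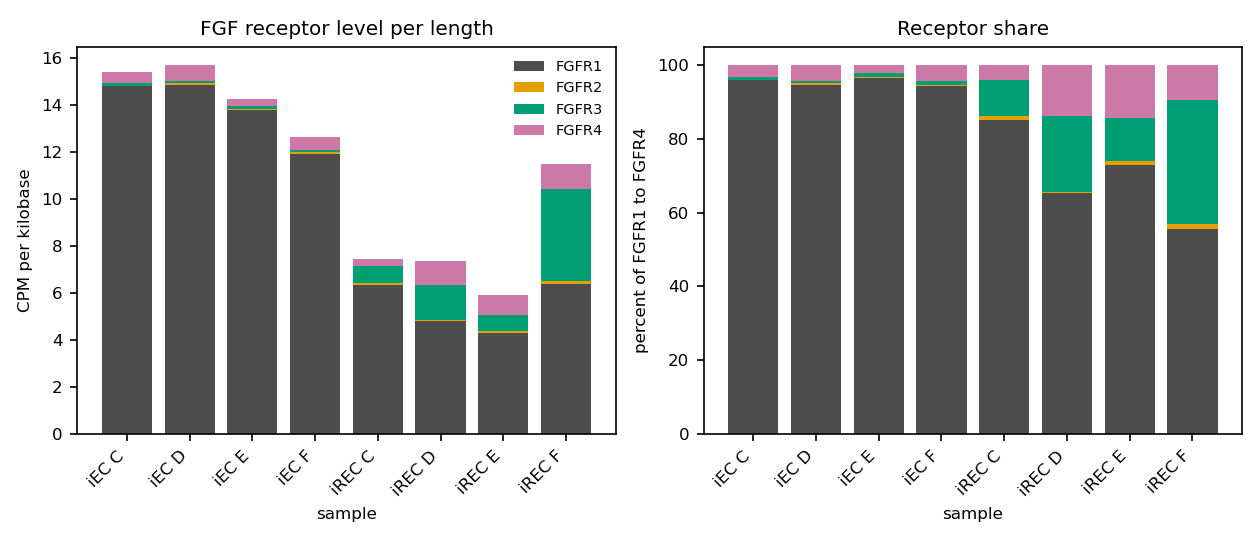
Left, level of FGFR1 to FGFR4 per length (CPM per kilobase, stacked bars from 0) in each sample; right, the same as a percent of their sum. The FGFR1 part falls from 94.4 to 96.7% in iEC to 55.6 to 85.3% in iREC, and the FGFR3 part is largest in iREC F.

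Among feedback genes, the MAP kinase phosphatases that carry a kinase-binding domain had a summed level of 853 ± 109 CPM in iEC and 464 ± 149 CPM in iREC (SD, n = 4). DUSP4 and DUSP5 made most of that gap, and DUSP1, DUSP6, DUSP8, DUSP10 and DUSP16 were not called. DUSP4 (ENSG00000120875, chr8:29333064-29350668, minus strand), a nuclear phosphatase of ERK and JNK, had the largest fall of all tested feedback genes. It measured 358, 277, 224 and 192 CPM in iEC C, D, E and F, and 11.9, 21.3, 11.8 and 20.9 CPM in iREC. The lowest iEC value was many times the highest iREC value, and iREC F did not stand out. DUSP4 was 15.9-fold lower in iREC (log2 fold change -3.995 ± 0.29 SE, adjusted p = 4.11e-05, edgeR). Per length, it made up 15.5% ± 4.52 of the summed CPM per kilobase of these phosphatases in iEC and 1.54% ± 0.310 in iREC.

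DUSP5 (ENSG00000138166, chr10:110497838-110511544, plus strand), a nuclear phosphatase specific for ERK, measured 221, 148, 237 and 167 CPM in iEC C, D, E and F and 67.8, 79.7, 58.9 and 120 CPM in iREC. The ranges did not overlap, and iREC F came nearest to iEC. DUSP5 was 2.37-fold lower (log2 fold change -1.25 ± 0.24 SE, adjusted p = 0.00545, edgeR). DUSP7, a cytoplasmic ERK phosphatase, gave 72.7, 64.3, 71.6 and 56.5 CPM in iEC and 49.7, 44.4, 42.4 and 41.5 CPM in iREC. It was 1.49-fold lower without overlap (log2 fold change -0.57 ± 0.12 SE, adjusted p = 0.00894, edgeR). DUSP2, a nuclear phosphatase known from activated lymphocytes, was higher at low levels. Its counts were 2, 5, 3 and 1 in iEC and 18, 15, 27 and 19 in iREC (log2 fold change 2.82 ± 0.46 SE, adjusted p = 0.00223, edgeR), with no overlap and about 1 CPM in iREC.

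DUSP6 (ENSG00000139318, chr12:89347232-89353271, minus strand), the cytoplasmic ERK phosphatase most used as a marker of FGF feedback, was not called. It measured 119, 124, 107 and 123 CPM in iEC C, D, E and F, and 151, 84.1, 92.8 and 91.7 CPM in iREC. Sample iREC C was the highest of all 8 samples and the other 3 iREC samples lay under all iEC samples. The log2 fold change was -0.17 ± 0.19 SE (adjusted p = 0.538, edgeR). Without iREC C it was -0.41 with an adjusted p of 0.0374, so 1 sample decided the call. DUSP1, a rapidly induced phosphatase of p38, JNK and ERK, measured 157 ± 43.6 CPM in iEC and 154 ± 110 CPM in iREC (SD, n = 4). The JNK and p38 phosphatases DUSP8, DUSP10 and DUSP16 measured 13.9 ± 3.04, 4.53 ± 0.794 and 35.7 ± 5.50 CPM in iEC, and 15.5 ± 4.05, 8.06 ± 8.36 and 37.0 ± 13.5 CPM in iREC. All 4 of these genes were uncalled (adjusted p from 0.360 for DUSP10 to 0.971 for DUSP1, edgeR), and iREC F was the highest iREC sample in each. DUSP9 fell under the filter with at most 5 counts in a sample.

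Sprouty proteins block RAS and RAF activation downstream of receptor tyrosine kinases, and their levels summed to 227 ± 73.7 CPM in iEC, against 92.3 ± 55.8 CPM in iREC. SPRY4 (ENSG00000187678, chr5:142310427-142326455, minus strand) measured 202, 77.6, 162 and 106 CPM in iEC C, D, E and F and 28.2, 35.0, 27.4 and 74.1 CPM in iREC. The groups did not overlap, though iEC D and iREC F nearly met. SPRY4 was 3.32-fold lower (log2 fold change -1.73 ± 0.40 SE, adjusted p = 0.0117, edgeR), and its log2 fold change was -2.18 without iREC F. SPRY2 measured 47.1, 24.1, 55.3 and 55.2 CPM in iEC and 11.97, 19.2, 9.34 and 38.3 CPM in iREC. With iREC F above iEC D it was not called (log2 fold change -1.20 ± 0.44 SE, adjusted p = 0.0758, edgeR), but the adjusted p was 0.00662 without iREC F and 0.0457 without iEC D. SPRY1 was also uncalled, at 38.7 ± 19.6 and 22.04 ± 21.8 CPM (log2 fold change -0.81, adjusted p = 0.379, edgeR); without iREC F, which measured 54.0 CPM, the values were -1.77 and 0.0199. SPRY3 went the other way, at 6.05 ± 1.29 CPM in iEC and 9.38 ± 2.21 CPM in iREC without overlap, and was not called (adjusted p = 0.0938, edgeR).

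Spred proteins bind neurofibromin and bring it to the membrane, where it inactivates RAS. Together they reached 139 ± 12.1 CPM in iEC, against 59.8 ± 22.99 CPM in iREC. SPRED3 (ENSG00000188766, chr19:38388421-38399587, plus strand) measured 51.4, 57.5, 60.7 and 60.1 CPM in iEC C, D, E and F and 9.23, 9.64, 9.04 and 12.5 CPM in iREC. Both groups were tight and far apart. SPRED3 was 5.68-fold lower (log2 fold change -2.51 ± 0.15 SE, adjusted p = 1.66e-05, edgeR), the smallest adjusted p of all members.

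SPRED2 (ENSG00000198369, chr2:65310851-65432637, minus strand) measured 44.9, 42.9, 35.5 and 31.1 CPM in iEC and 10.4, 14.1, 8.79 and 32.5 CPM in iREC. Sample iREC F lay within the iEC range, and the other 3 iREC samples were far under it. SPRED2 was 2.35-fold lower (log2 fold change -1.23 ± 0.38 SE, adjusted p = 0.0432, edgeR). The call was lost without any single one of the other 7 samples, with an adjusted p of up to 0.114, while without iREC F the log2 fold change was -1.80 (adjusted p = 6.04e-04). SPRED1 measured 43.4 ± 11.2 and 33.2 ± 11.9 CPM and was not called (adjusted p = 0.365, edgeR).

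The upstream sequence of the 2 called Spred genes is shown because both were called lower. ERK releases the repressor Capicua from octamers that read TGAATGAA or TGAATGGA, and AP-1 factors, some of them products of ERK-responsive genes, bind TGANTCA. Promoter sequences came from RefSeq on GRCh38.p14, which matched 42 of the 56 members; 250 bases before each start were searched on both strands. The octamer TGAATGAA was found in 1.41% of 34961 such windows and TGANTCA in 6.54%. Both occurred in 1 SPRED3 window, at 184 and 53 bases before the start of 1 SPRED3 transcript. That window lies inside the annotated gene. The other SPRED3 window, chr19:38388447-38388696, is nearer to the annotated start of the gene and held neither. Neither occurred in the windows of SPRED2. TGANTCA was also found before FGF1, which was called higher, and before FGF13, so that 3 of 75 member windows held it. The octamer TGAATGAA was held by 1 of the 75. The ETS letters CCGGAAG were searched too. They were found in 8.52% of all windows and in 2 of 75 member windows, before DUSP15 and SPRY1. A match of letters is not a site of binding. The stretches run 5′ to 3′ on the strand of the gene, and carry the matches in capitals. The first SPRED3 stretch and that of SPRED2 hold no annotated exon, and the short SPRED3 stretch is the 30 bases around its TGANTCA match.
SPRED3 chr19:38389541-38389611 (plus strand): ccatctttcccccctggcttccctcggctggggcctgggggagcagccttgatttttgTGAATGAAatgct
SPRED3 chr19:38389720-38389749 (plus strand): ccgttgctgggTGACTCAgtgagctttgca
SPRED2 chr2:65432638-65432849 (minus strand): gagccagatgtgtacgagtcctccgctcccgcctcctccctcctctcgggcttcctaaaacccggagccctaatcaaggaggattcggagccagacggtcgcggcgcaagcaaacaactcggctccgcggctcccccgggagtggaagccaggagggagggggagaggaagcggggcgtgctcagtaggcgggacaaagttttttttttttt

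The PEA3 factors had a summed level of 104 ± 15.6 CPM in iEC, against 36.1 ± 19.7 CPM in iREC. Of the 3, 2 were called lower, against 11.7% of all tested genes. ETV4 (ENSG00000175832, chr17:43527844-43579620, minus strand) measured 67.0, 66.7, 44.0 and 37.2 CPM in iEC C, D, E and F and 6.87, 9.64, 4.70 and 24.7 CPM in iREC. There was no overlap, and iREC F was the highest iREC sample. ETV4 was 4.68-fold lower (log2 fold change -2.23 ± 0.48 SE, adjusted p = 0.00921, edgeR), with a log2 fold change of -2.93 without iREC F (adjusted p = 3.62e-04). It shares 68 exonic bases with DHX8 on the other strand.

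ETV5 (ENSG00000244405, chr3:186046308-186110318, minus strand) measured 38.6, 38.9, 38.2 and 40.0 CPM in iEC C, D, E and F. In iREC it measured 10.5, 16.99, 14.8 and 30.1 CPM. No iREC sample reached the iEC range. ETV5 was 2.15-fold lower (log2 fold change -1.10 ± 0.28 SE, adjusted p = 0.0190, edgeR). The adjusted p was 0.0582 without iREC D, 0.0568 without iREC E and 6.72e-04 without iREC F, where the log2 fold change was -1.47.

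ETV1 measured 10.5, 13.6, 13.2 and 9.95 CPM in iEC and 6.35, 5.92, 3.85 and 10.1 CPM in iREC. Sample iREC F just entered the iEC range, and ETV1 was not called (log2 fold change -0.85 ± 0.29 SE, adjusted p = 0.0608, edgeR); without iREC F the values were -1.14 and 0.0108. The Capicua octamer TGAATGGA was found in 0.835% of the 34961 windows. Among 75 member windows only 1, of ETV1, held it, and the other ETV1 windows did not. It lies 117 bases before the start of 1 ETV1 transcript. That window is shown, with the octamer in capitals, because Capicua repression of PEA3 genes is well known; no RefSeq window of ETV4 or ETV5 was at hand.
ETV1 chr7:13991426-13991675 (minus strand): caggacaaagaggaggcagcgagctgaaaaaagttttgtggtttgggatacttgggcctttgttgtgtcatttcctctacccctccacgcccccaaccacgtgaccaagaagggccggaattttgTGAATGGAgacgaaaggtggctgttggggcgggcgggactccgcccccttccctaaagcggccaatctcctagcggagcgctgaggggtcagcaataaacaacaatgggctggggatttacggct

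The atypical DUSPs lack a kinase-binding domain and act on varied substrates. Of the 10 tested, 3 were called lower and 3 higher, against 11.7% and 13.2% of all tested genes. DUSP14, which inhibits signalling from antigen receptors in T cells, measured 68.8, 51.3, 82.2 and 85.5 CPM in iEC C, D, E and F and 31.1, 37.5, 35.1 and 38.1 CPM in iREC. It was 2.03-fold lower without overlap (log2 fold change -1.02 ± 0.17 SE, adjusted p = 0.00255, edgeR). DUSP22, a phosphatase with a role in JNK and T cell signalling, gave 60.9, 60.5, 62.6 and 74.5 CPM in iEC and 32.0, 35.4, 37.3 and 31.6 CPM in iREC. It was 1.90-fold lower without overlap (log2 fold change -0.92 ± 0.12 SE, adjusted p = 6.70e-04, edgeR). DUSP18 measured 13.6, 16.2, 12.8 and 16.3 CPM in iEC and 6.94, 5.85, 6.05 and 6.75 CPM in iREC (log2 fold change -1.20 ± 0.17 SE, adjusted p = 0.00116, edgeR). The DUSP18 value is uncertain, because the opposite-strand gene SLC35E4 shares 1530 of its 4450 exonic bases and stood at 30.8 CPM in iEC, against 5.33 CPM in iREC.

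Among the atypical DUSPs that were higher, DUSP3 is an abundant phosphatase of ERK and JNK that moves with the cell cycle. It measured 150, 149, 129 and 202 CPM in iEC C, D, E and F and 257, 226, 231 and 233 CPM in iREC. DUSP3 was 1.502-fold higher without overlap (log2 fold change 0.59 ± 0.15 SE, adjusted p = 0.0179, edgeR), and its call was lost without iEC C, D or E, at an adjusted p of 0.0634, 0.0557 and 0.0640. DUSP23, a small phosphatase, gave 4.75, 7.58, 5.45 and 7.37 CPM in iEC and 13.3, 13.3, 9.40 and 17.3 CPM in iREC (log2 fold change 1.08 ± 0.25 SE, adjusted p = 0.0123, edgeR). Its groups stayed apart. DUSP15 was rare, with 2, 7, 0 and 6 counts in iEC and 47, 29, 34 and 11 counts in iREC. DUSP15 was called higher (log2 fold change 2.97 ± 0.76 SE, adjusted p = 0.0192, edgeR), but the adjusted p was 0.0613 without iEC C.

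The remaining atypical DUSPs were uncalled. DUSP11, an RNA phosphatase, measured 38.8 ± 4.92 CPM in iEC and 54.1 ± 9.72 CPM in iREC (SD, n = 4; adjusted p = 0.0585, edgeR), with an adjusted p of 0.0124 without iREC F and 0.0414 without iEC F. DUSP12 measured 29.004 ± 3.79 and 22.1 ± 4.13 CPM (adjusted p = 0.121, edgeR). DUSP19 and DUSP28 stayed under 4 CPM in every sample. DUSP26 and DUSP27 fell under the filter with at most 6 counts in a sample.

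**Figure D4:**
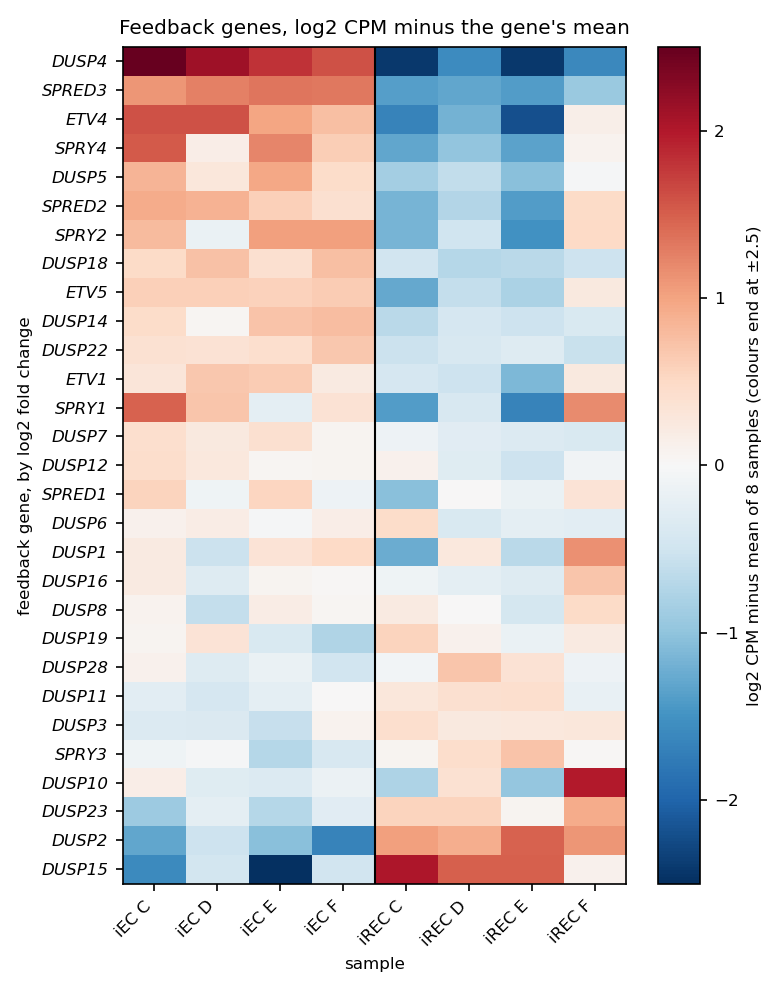
Log2 CPM of the 29 tested feedback genes in each sample (x axis) minus the mean of the gene over the 8 samples, with genes on the y axis in order of log2 fold change and colours ending at ±2.5. The upper rows are red in iEC and blue in iREC; in iREC F several of them, such as SPRY1, SPRY2, SPRED2 and ETV5, turn toward red.

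Per length, the order of the feedback genes moved as well. In iEC the highest levels were 78.0 CPM per kilobase for DUSP1, 74.0 for DUSP5, 36.2 for DUSP4 and 31.4 for DUSP3. In iREC they were 76.4 for DUSP1, 47.2 for DUSP3, 31.2 for DUSP5 and 22.7 for DUSP6, while DUSP4 stood at 2.27. DUSP1 and DUSP5 did not differ beyond their spread in iEC. In iREC the place of DUSP1 rested on samples D and F, at 82.4 and 151 CPM per kilobase; in C and E, at 29.0045 and 43.2, it was under DUSP3 at 51.3 and 46.01. Without iREC F, 19 of the 29 feedback genes were called, 5 higher and 14 lower, with SPRY1, SPRY2, ETV1 and DUSP11 added. Calls rose over all genes too, to 4214 in the same fit from 3829 with all 8 samples. The share of tested genes called is not given for that fit.

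Genes around the members were read from 5 lists. Among heparan sulfate genes and FGF co-receptors, 13 of 26 tested genes were called, 10 higher and 3 lower, beside 25.0% of all tested genes, and the list median was 0.61. The extracellular sulfatases, which remove the sulfate groups that FGF and its receptor bind, changed in opposite directions. SULF1 stood at 10.7 ± 12.1 CPM in iEC against 497 ± 69.7 CPM in iREC, a rise of 5.54 ± 0.91 (SE) on the log2 scale. SULF2 stood at 927 ± 212 CPM against 98.8 ± 14.9 CPM (log2 fold change -3.23 ± 0.20 SE). The glypicans GPC4 and GPC6, heparan sulfate carriers at the membrane, rose by 5.26 and 3.78 on the log2 scale. Enzymes of heparan sulfate synthesis were called in both directions. EXTL3 and NDST1 fell by 1.31 and 0.83, while HS6ST1, HS3ST3B1 and EXT1 rose by 2.27, 1.72 and 0.70. KL, the co-receptor of the endocrine ligand FGF23, was picked out after its values were seen. It measured 8.19, 19.5, 1.42 and 1.07 CPM in iEC C, D, E and F and 75.9, 78.9, 84.0 and 26.0 CPM in iREC (log2 fold change 3.13 ± 0.83 SE, adjusted p = 0.0233, edgeR), while FGF23 itself had at most 3 counts in any sample.

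Of the adaptors and the RAS to ERK cascade, 10 of 30 tested genes were called (33.3%, near the 25.0% of all tested genes), 5 higher and 5 lower, with a median of -0.01. The kinase gene MAP2K1, which encodes the activator of ERK, stood at 153 ± 23.1 CPM in iEC against 75.4 ± 16.6 CPM in iREC and was lower (log2 fold change -1.02 ± 0.18 SE). The adaptor SHC1 fell by 0.87 and the GTPase HRAS by 0.86 on the log2 scale. SHC2, RPS6KA2 and LAMTOR3 rose by 1.69, 1.22 and 0.62. In a list of other brakes on receptor tyrosine kinases and RAS, 5 of 18 were called (27.8%, again near the background), 3 higher and 2 lower. The receptor inhibitors LRIG1, LRIG3 and ERRFI1 rose by 3.0002, 2.47 and 1.75, and PEA15 and RASA3 fell by 0.58 and 0.53. The JNK, p38 and ERK5 kinases had 1 call among 15 (6.7%, against 25.0% of all tested genes), MAP2K3, which fell by 1.12.

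A further list held genes that ERK induces or, like ELK1, ELK3, ETS1 and CIC, that encode factors it acts on. Of its 23 tested members, 12 were called (52.2%), against 25.0% of all tested genes. Of these, 3 were higher and 9 lower, against backgrounds of 13.2% and 11.7%. The median log2 fold change of the list was -0.81. CCND1, the cyclin that drives entry into S phase, stood at 2407 ± 921 CPM in iEC against 253 ± 88.6 CPM in iREC and was lower (log2 fold change -3.25 ± 0.35 SE, adjusted p = 2.59e-04, edgeR). MAFF and EGR1 fell by 2.90 and 2.29. The ETS factors ETS2 and ELK3 and the AP-1 member FOSL2 rose by 0.94, 0.79 and 0.96. The summed level of the list ran from 3550 to 5479 CPM in iEC, against 2245 to 2359 CPM in iREC. CCND1 made most of that gap: without it the sums were 2011 to 2429 CPM and 1890 to 2177 CPM, which overlapped.

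In the authors' deposited table, 26 of the 56 members passed an adjusted p under 0.05. The share of all genes that passed there was not worked out, so this count serves only to compare calls. All 21 members called here were among the 26, each in the same direction. The other 5 were ETV1, SPRY2 and FGF13, which were tested but not called here, and FGF10 and FGF20, which fell under the filter.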

How the data were processed

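Poly-T selected mRNA was sequenced in 8 samples, 4 iEC and 4 iREC, with second-strand synthesis using dUTP, per the labels' protocols. The reads were handled with fastp and HISAT2 2.0.5 on hg38, per the submitters' processing notes; the counting program and its strand setting are not given in the sources used here. The authors deposited 1 table with raw read counts per gene, a normalized signal, FPKM, log2 fold changes and p-values, per the file headers. Only the counts were used for tests; the deposited log2 fold changes and adjusted p-values were used for the set of shared calls, and the deposited signal and FPKM values were not analysed. All 30386 genes matched GENCODE 29 (GRCh38) on identifier, start and end.

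From the counts, genes were kept by filterByExpr of edgeR 4.0.16 (R 4.3.3), libraries were TMM-scaled and groups were compared by the quasi-likelihood F-test over all 8 samples, with Benjamini-Hochberg adjustment over 15330 genes; the test was checked on simulated data. Log2 CPM used a prior count of 2. A count of 3, the floor, equals 0.178 to 0.215 CPM and covers counting error only. Full values are given for FGF2, FGFR1, SPRY4, DUSP6, ETV5, called members and tested receptors, and other members are given by group. For each list at most 3 called genes per direction are named, taken where either group averaged 10 CPM or more. KL, HS6ST1, HS3ST3B1 and EXT1 were named beyond that rule. The members and lists were chosen with earlier results of these data known. Alternatives were DESeq2 size factors, scaling by library size alone, a fit without the filter and with a stricter one, DESeq2 1.42.0, limma-voom 3.58.1, the letter as a block, and each sample left out. HS3ST1 and CBLC were not analysed here.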

Additional observations from a re-analysis of the deposited data

Results flagged for a closer look

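Of 79 groups of 4 member values, 2 held a sample set far apart by Dixon's 95% criterion, where about 3.95 would be at 1 in 20. DUSP22 in iEC F was 74.5 CPM, beside 60.5 to 62.6 CPM in the other iEC samples. DUSP6 in iREC C was 151 CPM, beside 84.1 to 92.8 CPM in the other iREC samples.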

How the results depend on the processing

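Of the 21 called members, 16 kept their call in every one of the 15 alternatives that tested them, and none changed direction; the stricter filter left out DUSP2, DUSP15 and FGF16. The other 5 were DUSP3, DUSP15, ETV5, SPRED2 and FGF2, each lost in 1 or more fits without a sample, and DUSP15 also with the letter as a block (adjusted p = 0.0545). Another 6 members were called in at least 1 alternative: DUSP6, DUSP11, ETV1, SPRY1, SPRY2 and FGF13. With no filter on low counts, 7 of 19 ligands and binding proteins were called, 5 higher and 2 lower, in place of 4 of 7. That fit also tests the ligands that the filter leaves out, and FGF10, FGF13 and FGF20 were the ones added. Its share of called genes over all genes is not given. Leaving out 1 sample gave 12 to 19 called feedback genes, 4 to 5 ligands, 2 receptors and 2660 to 4214 genes in all. With all 8 samples these counts were 15, 4, 2 and 3829. Same-letter correlations of deviations from the group means were 0.17, -0.079, 0.029 and 0.25 for C, D, E and F. Pairs of unlike letters ran from -0.22 to 0.18, so the value for F was the highest of any pair. These correlations cannot decide whether the letters pair the samples. With the replicate block, 3334 genes, 5 ligands, 2 receptors and 14 feedback genes were called. Uncalled members whose sign turned were DUSP16 (-0.00038 with the block, and -0.24 to 0.16 over the fits without 1 sample), DUSP10 (-0.19 to 1.13, negative without iREC F), DUSP8 (-0.0013 to 0.30, negative without iEC D) and DUSP1 (-0.60 to 0.24, positive without iEC E, iEC F, iREC C or iREC E); the cause was not tested. The filter left out 16 of the 56 members, 12 of them ligands, for few reads.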
